A study of Mus musculus with 6 samples.

Results

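The genes described here encode the molecular chaperones of the heat shock protein (HSP), DNAJ, CCT and BAG families, measured in the liver of aged mice that lack Itpr2 and of wild-type mice. Members were the non-control array probes whose gene symbol begins with Hspa, Hspb, Hspd, Hspe, Hsph or Hsp and a digit, Dnaja, Dnajb or Dnajc, or Cct2 to Cct8, together with Bag1 to Bag6, Stip1, Ahsa1 and Tcp1. The endoplasmic reticulum and mitochondrial chaperone genes Hspa5, Hspa9, Hsp90b1 and Dnajb9 were not members. The rule took 116 of 39429 probes, which belong to 86 genes. Of these, 73 genes, by 101 probes, were measured, among 17996 measured genes of the whole array. A probe counts as measured if all 3 arrays of either genotype, or of both, read it well above background.

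Chaperones bind unfolded or partly folded proteins and keep them from aggregating. HSP70 proteins take up clients that J-proteins (the DNAJ families) deliver, and nucleotide exchange factors of the HSP110 and BAG families release them. HSP90 and the ring-shaped chaperonins, TRiC in the cytosol and HSP60 with HSP10 in mitochondria, finish the folding of selected clients, and heat shock factor 1 (HSF1) switches on many of these genes when unfolded proteins accumulate.

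The study compared liver from 3 wild-type (WT) and 3 Itpr2 knockout (Itpr2KO, here KO) C57Bl/6 mice aged 23 months, from a survival cohort that received no specific treatment. Itpr2 encodes an inositol trisphosphate receptor, a channel that releases calcium from the endoplasmic reticulum. The labels give neither the design of the knockout allele nor the sex of the mice. Each mouse gave RNA for 1 single-colour array, and each value below is a level on the log2 scale relative to the 75th percentile of its array, so a level of 0 is the signal of that percentile and a change is the mean KO level minus the mean WT level.

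On each array 57.5% to 59.5% of probes were well above background and 0 probes were saturated. The targeted gene, Itpr2, had levels of 3.04, 3.07 and 3.08 in WT and 2.54, 2.38 and 2.20 in KO mice. Its KO arrays all lay below its WT arrays, with a change of -0.69 ± 0.13 (standard error, SE), and its limma adjusted p was 0.810. Whether its probe lies in or outside the deletion is not stated by the labels or files used. All 9 hepatocyte markers on the arrays were measured, among them albumin, and their summed level was 10.3 to 10.4 in WT and 10.3 to 10.8 in KO. WT 1 and KO 3 also carried striated muscle transcripts, with a summed muscle marker level of 7.35 and 7.49 against 0.36 to 0.95 on the other 4 arrays. Slide 1 held WT 1 and WT 2 with KO 1, and slide 2 held WT 3 with KO 2 and KO 3. In the authors' deposited value table the columns of KO 2 and KO 3 followed the scanner values of KO 3 and KO 2, and the scanner files were used here.

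The promoters of 5 members are shown first, because heat shock factors bind inverted repeats of GAA, which the windows of Hsph1, Hspe1, Dnaja1 and Hspa1a hold and that of Stip1 does not. Dnaja1 has 2 further RefSeq promoters, without a match, and Hsph1 a second with the same matches. Sequences are RefSeq promoters of assembly GRCm38.p6, from 250 bases before to 50 bases after the transcription start, read 5′ to 3′ on the gene's strand. Capitals mark each match to GAANNTTC or TTCNNGAA, alone or overlapping. A 3-unit form is either of these with 2 more bases of any kind and then a further GAA or TTC, so that GAA and TTC alternate. The 2-unit forms are their own reverse complements and each 3-unit form is the reverse complement of the other, so both strands were searched, and a 3-unit match contains a match of each 2-unit form. Hsph1 lies at chr5:149636266-149636565 on the minus strand, Hspe1 at chr1:55087898-55088197 on the plus strand, Dnaja1 at chr4:40722218-40722517 on the plus strand, Hspa1a at chr17:34972107-34972406 on the minus strand and Stip1 at chr19:7039977-7040276 on the minus strand.
Hsph1: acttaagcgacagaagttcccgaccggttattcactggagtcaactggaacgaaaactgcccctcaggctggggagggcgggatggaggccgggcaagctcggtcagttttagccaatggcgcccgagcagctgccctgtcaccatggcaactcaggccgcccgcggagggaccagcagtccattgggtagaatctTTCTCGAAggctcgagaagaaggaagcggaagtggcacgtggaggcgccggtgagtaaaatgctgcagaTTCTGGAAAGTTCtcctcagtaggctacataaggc
Hspe1: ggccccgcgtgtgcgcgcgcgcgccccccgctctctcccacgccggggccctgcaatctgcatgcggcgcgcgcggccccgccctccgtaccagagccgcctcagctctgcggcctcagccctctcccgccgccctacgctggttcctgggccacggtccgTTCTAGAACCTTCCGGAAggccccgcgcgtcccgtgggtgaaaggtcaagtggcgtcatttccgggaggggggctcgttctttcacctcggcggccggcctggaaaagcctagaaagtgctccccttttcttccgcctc
Dnaja1: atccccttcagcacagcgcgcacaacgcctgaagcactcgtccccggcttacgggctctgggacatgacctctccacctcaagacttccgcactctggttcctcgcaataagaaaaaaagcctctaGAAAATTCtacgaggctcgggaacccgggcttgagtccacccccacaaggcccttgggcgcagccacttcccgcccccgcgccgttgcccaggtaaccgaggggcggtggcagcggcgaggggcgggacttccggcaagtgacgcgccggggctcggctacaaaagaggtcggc
Hspa1a: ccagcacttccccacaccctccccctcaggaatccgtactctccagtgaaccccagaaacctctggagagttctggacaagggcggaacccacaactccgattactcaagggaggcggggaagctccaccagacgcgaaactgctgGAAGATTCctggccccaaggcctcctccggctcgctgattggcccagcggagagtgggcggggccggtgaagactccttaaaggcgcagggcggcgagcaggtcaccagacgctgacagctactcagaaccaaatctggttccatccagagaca
Stip1: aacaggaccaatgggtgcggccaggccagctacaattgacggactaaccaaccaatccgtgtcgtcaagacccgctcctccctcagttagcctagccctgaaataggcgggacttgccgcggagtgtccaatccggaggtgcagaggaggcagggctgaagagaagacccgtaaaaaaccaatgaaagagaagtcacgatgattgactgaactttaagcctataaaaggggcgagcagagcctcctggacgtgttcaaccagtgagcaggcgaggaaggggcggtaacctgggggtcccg

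A 2-unit match was present in 15.1% of all 32851 RefSeq promoters and in 24% of the 75 promoters of measured chaperone genes. These promoters belong to 59 genes, of which 16 had a match, and the other 14 measured chaperone genes had no entry. A 3-unit match was present in 0.603% of all promoters and in 8% of those of measured chaperone genes, which were the promoters of Dnajb6, Hspd1, Hspe1 and Hsph1. Dnajb6 and Hsph1 each count more than once, by overlapping windows that hold the same match. By gene, the shares were 0.662% of all genes with a promoter entry and 6.78% of the 59 chaperone genes. Hspd1 and Hspe1, the genes of HSP60 and HSP10, are transcribed in opposite directions from a shared stretch, and their promoter windows have 285 bases in common. Their matches are the same bases read on opposite strands, so these shares count that stretch for both genes. A match is a run of letters in this window and shows no binding.

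None of the 73 measured chaperone genes passed the adjusted threshold of 0.05 in the limma fit over all genes, where 1 of 17996 genes (0.00556%) passed, and the smallest adjusted p of a chaperone gene was 0.810. At an unadjusted limma p under 0.05 there were 6 chaperone genes (8.22%), against 6.13% of all genes. Dnajc2, Stip1, Hsph1, Dnaja1 and Hspa13 were lower in KO, which is 6.85% of the chaperone genes against 2.66% of all genes, and Hspb11 was higher, 1.37% against 3.47%. The mean was lower in KO for 49 of the 73 genes, or 67.1%, against 45.9% of all genes. The median change of the chaperone genes was -0.078, and that of all genes was 0.022. With each array centred on its median in place of the 75th percentile, 63 chaperone genes (86.3%) and 60.6% of all genes had the lower mean in KO. All 3 KO arrays lay below all 3 WT arrays for 9 chaperone genes (12.3%, against 5.15% of the 17880 genes with a value on all 6 arrays). These were Hsph1, Hspa4, Hspa13, Hspa14, Bag3, Dnajc2, Dnajc17, Stip1 and Hspe1. All 3 lay above for Hspb11 and Dnajc22 (2.74%, against 6.9%). In bulk liver, fewer cells of a type and less RNA per cell cannot be told apart.

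**Figure D1:**
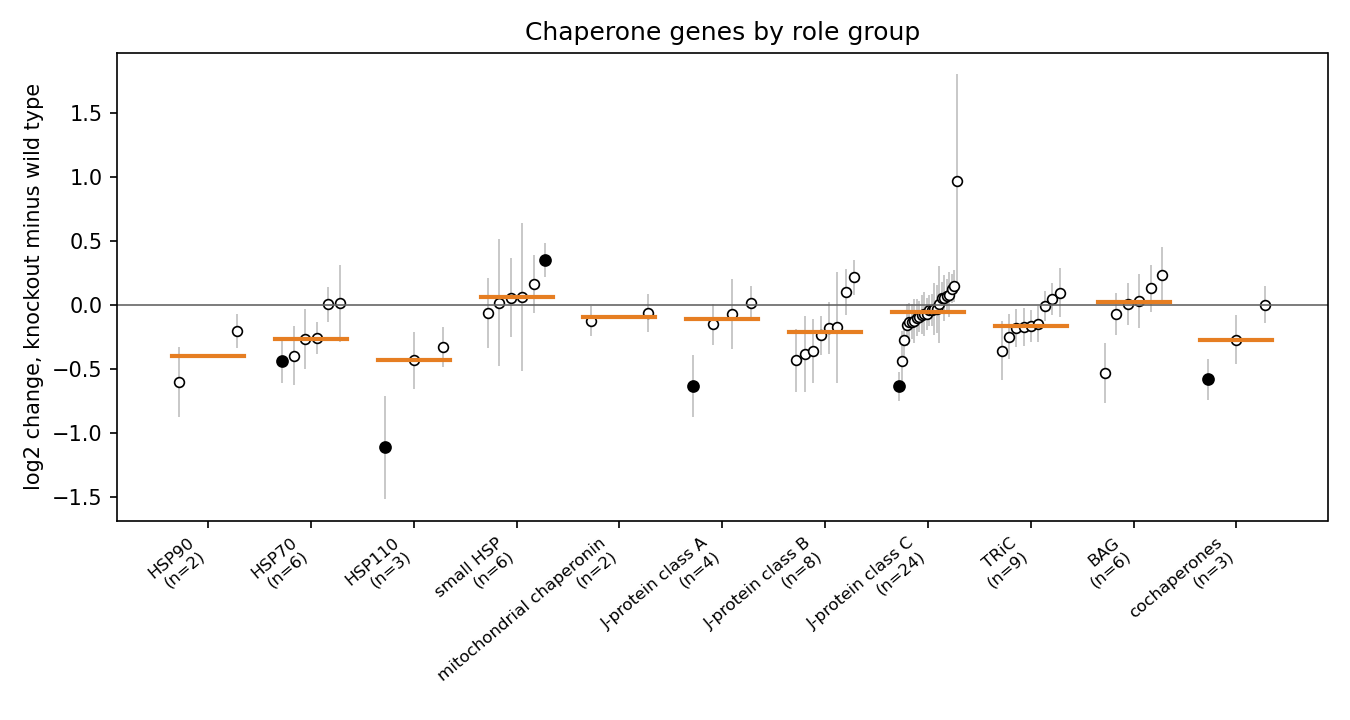
Log2 change (KO minus WT, 3 mice each) of the 73 measured chaperone genes, by role group. Circles are genes, grey lines the SE of the limma fit, filled circles genes with an unadjusted limma p under 0.05, and orange bars group medians. The HSP110 and HSP90 medians lie lowest, at -0.43 and -0.40, and the small HSP median lies at 0.058.

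Both cytosolic HSP90 genes had lower means in KO. Hsp90aa1, the stress-inducible HSP90 alpha, had levels of 4.35, 4.70 and 4.75 in WT and 4.57, 3.63 and 3.79 in KO. KO 1 lay among the WT arrays and the other two KO arrays lay below them, with a change of -0.60 ± 0.27 (SE, n = 3 per genotype). Hsp90ab1, the constitutive HSP90 beta, had levels of 6.64, 6.79 and 6.78 in WT and 6.69, 6.50 and 6.41 in KO. The same array, KO 1, lay within the WT range, and the change was -0.20 ± 0.13. Neither passed the adjusted limma threshold.

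The 3 HSP110 genes, whose products release clients from HSP70, also had lower means in KO, with a median change of -0.43. Hsph1, the heat-inducible member known as HSP105, had levels of 2.72, 3.11 and 2.79 in WT and 2.72, 1.27 and 1.29 in KO. KO 2 and KO 3 lay far below every WT array, KO 1 was level with WT 1 to 2 decimals, and the change was -1.12 ± 0.41, so the WT mean was 2.17 times the KO mean (limma unadjusted p = 0.0307, adjusted p = 0.810). It was -1.60 without KO 1. Hspa4, known as APG-2, had levels of 3.86, 4.12 and 3.87 in WT and 3.67, 3.79 and 3.39 in KO, all 3 below WT, with a change of -0.33 ± 0.16. Hspa4l, its close relative, had levels of 1.00, 1.29 and 1.27 in WT and 1.21, 0.51 and 0.54 in KO. Here KO 1 lay within the WT range, and the change was -0.43 ± 0.22.

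Of 6 measured HSP70 genes, 4 had lower means in KO and the median change was -0.26. Hspa13, a microsomal HSP70 relative, had levels of 1.62, 1.64 and 1.76 in WT and 1.51, 0.97 and 1.21 in KO. All KO arrays lay below WT, and the change was -0.44 ± 0.17 (limma unadjusted p = 0.0359, adjusted p = 0.810). Hspa14 encodes the HSP70 of the ribosome-associated complex, which receives nascent chains, and its levels were 2.37, 2.42 and 2.41 in WT and 2.29, 2.13 and 2.00 in KO. These groups did not overlap either, with a change of -0.26 ± 0.13. Hspa1a, the stress-inducible HSP70, had levels of -3.95, -4.39 and -4.44 in WT and -4.34, -5.03 and -4.61 in KO. KO 2 and KO 3 lay below every WT array and KO 1 lay within their range, with a change of -0.40 ± 0.23. Hspa1a and its near-identical copy Hspa1b can share signal on a probe, so the value is uncertain as to which copy it measures, and Hspa1b is not analysed here. Hspa2 and Hspa12b had changes of -0.27 ± 0.23 and 0.011 ± 0.30.

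Hspa8, the constitutive HSC70, was read by 3 probes that differed. The brightest had levels of 5.22, 5.28 and 5.35 in WT and 5.19, 5.19 and 5.48 in KO, with overlapping groups and a change of 0.0028 ± 0.14. A second bright probe had levels of 5.31, 5.30 and 5.35 in WT and 5.06, 4.81 and 4.83 in KO, all below WT. In a limma fit with every probe kept, its change was -0.42 ± 0.13 (unadjusted p = 0.0149, adjusted p = 0.804). The third probe had a change of -0.95 ± 0.38 (limma unadjusted p = 0.0437, adjusted p = 0.804), with levels of 3.83, 4.26 and 3.62 in WT and 3.80, 2.44 and 2.62 in KO. Its KO 1 level again lay within the WT range.

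Among the J-proteins, which deliver clients to HSP70, class A had 3 of 4 and class B 6 of 8 measured genes with a lower mean in KO, and class C, the most varied, had 16 of 24. The medians were -0.11, -0.21 and -0.058. Dnaja1, a cytosolic partner of HSC70, had levels of 5.36, 5.84 and 5.55 in WT and 5.39, 4.87 and 4.59 in KO. KO 1 lay just inside the WT range and the others lay below it, with a change of -0.64 ± 0.24 (limma unadjusted p = 0.0362, adjusted p = 0.810). Its sister genes Dnaja2 and Dnaja3, the latter a mitochondrial J-protein, had changes of 0.011 ± 0.13 and -0.15 ± 0.16. Dnajb1, the heat-inducible HSP40, had levels of 3.07, 3.94 and 3.21 in WT and 3.44, 2.96 and 2.67 in KO. WT 2 was the highest array and KO 1 lay within WT, with a change of -0.38 ± 0.30. Dnajb4, a related class B protein, and Dnajb11, a J-protein of the endoplasmic reticulum lumen, had changes of -0.44 ± 0.25 and -0.36 ± 0.25. Dnajb6, which keeps polyglutamine proteins from aggregating, had a change of 0.21 ± 0.14, and its 4 probes ran from -0.31 to 0.21. Dnajb2 and Dnajb12 had changes of -0.24 ± 0.15 and 0.096 ± 0.18.

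Dnajc2 had the smallest p of any chaperone gene. It encodes the J-protein of the ribosome-associated complex, the partner of the Hspa14 product, and its levels were -0.53, -0.68 and -0.63 in WT and -1.22, -1.28 and -1.25 in KO. The 3 arrays of each genotype lay close together and the groups were far apart. The change was -0.64 ± 0.12, with a WT mean 1.56 times the KO mean (limma unadjusted p = 0.00114, adjusted p = 0.810), and it ranked 20th by p among all genes. It was -0.61 within slide 1 and -0.64 within slide 2. Dnajc17, a nuclear J-protein linked to splicing, had levels of -2.77, -2.81 and -2.58 in WT and -2.92, -2.99 and -3.08 in KO, without overlap, and a change of -0.27 ± 0.13. Dnajc21, a ribosome biogenesis factor, had levels of 0.034, 0.13 and -0.11 in WT and -0.11, -0.24 and -0.93 in KO. KO 3 stood well below the rest and KO 1 lay at the lower edge of WT, with a change of -0.44 ± 0.24.

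A single array set the largest positive change. Dnajc12, a co-chaperone of phenylalanine hydroxylase and related enzymes, had levels of 2.30, 1.18 and 1.87 in WT and 4.74, 1.62 and 1.90 in KO. KO 1 stood apart and the other KO arrays lay within the WT range. The change was 0.97 ± 0.83, and it was -0.023 without KO 1. Neutrophil markers were also highest on KO 1, with a summed level of 5.97 there, 5.31 on KO 3 and 2.64 to 4.05 on the other arrays, and their part in the Dnajc12 value was not tested. Dnajc22 had levels of 3.26, 3.22 and 3.27 in WT and 3.37, 3.45 and 3.30 in KO. Its groups did not overlap, but its change of 0.12 ± 0.12 was close to its SE. Dnajc5, the cysteine string protein of vesicles, and Dnajc15 and Dnajc19, both of mitochondrial protein import, had changes of 0.067 ± 0.13, -0.040 ± 0.13 and -0.078 ± 0.15. Dnajc18 had a change of 0.14 ± 0.12.

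Stip1, or HOP, which passes clients from HSP70 to HSP90, had levels of 2.26, 2.36 and 2.32 in WT and 1.99, 1.49 and 1.71 in KO. All KO arrays lay below the narrow WT range. The change was -0.58 ± 0.16 (limma unadjusted p = 0.00949, adjusted p = 0.810). It was -0.32 within slide 1 and -0.72 within slide 2. Ahsa1, which activates the HSP90 ATPase, had levels of 5.01, 5.14 and 5.20 in WT and 5.21, 4.69 and 4.62 in KO. KO 1 was the highest array of all and KO 2 and KO 3 the lowest, with a change of -0.27 ± 0.19. Hspbp1, a nucleotide exchange factor of HSP70, had a change of -0.00070 ± 0.14.

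Of the BAG genes, which encode nucleotide exchange factors of HSP70, Bag3 was the only measured member whose genotypes did not overlap. The heat-inducible Bag3, which steers clients to autophagy, had levels of 2.93, 3.52 and 2.75 in WT and 2.62, 2.69 and 2.27 in KO. The highest KO array lay just below the lowest WT array, and the change was -0.53 ± 0.24. Bag1, Bag4, Bag5 and Bag6 had changes of -0.074 ± 0.17, 0.23 ± 0.22, 0.13 ± 0.18 and 0.0068 ± 0.16. The median over the 6 BAG genes was 0.018.

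The TRiC chaperonin folds actin and tubulin, and 7 of 9 measured subunit genes had the lower mean in KO, with a median change of -0.17. KO 1 lay below all WT arrays for 0 of the 9 genes (31.5% of all genes), KO 2 for 6 (28% of all genes) and KO 3 for 6 (30% of all genes). Cct6a had levels of 1.26, 1.31 and 1.34 in WT and 1.29, 1.09 and 0.45 in KO, with KO 3 well below the rest, and a change of -0.36 ± 0.23. Cct2 had levels of 3.97 to 4.07 in WT and 3.99, 3.80 and 3.74 in KO. Here too KO 1 lay within the WT range, and the change was -0.17 ± 0.13. Cct5, Cct7 and Cct6b, a testis-enriched subunit, had changes of 0.046 ± 0.12, -0.0097 ± 0.12 and 0.094 ± 0.19. In mitochondria, Hspe1 (HSP10) had levels of 5.74, 5.84 and 5.86 in WT and 5.60, 5.72 and 5.71 in KO. Its groups were separated by a narrow gap, with a change of -0.13 ± 0.12. Hspd1 (HSP60), its neighbour on the chromosome, had overlapping groups and a change of -0.066 ± 0.15.

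Heat-inducible HSF1 target genes were listed separately. The list holds 19 genes, 18 of them measured, of which 15 are members and Chordc1, Fkbp4 and Cryab are not. Means were lower in KO for 17 of 18 (45.9% of all genes had the lower mean), the exception being the brightest Hspa8 probe, whose sign turned under quantile normalization and under median centring. The median change was -0.39, beside 0.022 for all genes. At an unadjusted limma p under 0.05 there were 4 genes, Hsph1, Stip1, Dnaja1 and Chordc1, all lower (2.66% of all genes were), and none passed after adjustment over all genes (smallest adjusted p = 0.810). Chordc1, a co-chaperone of HSP90, had levels of 1.78, 2.31 and 1.98 in WT and 1.88, 1.20 and 0.95 in KO, with KO 1 within the WT range and the other KO arrays below it. Its change was -0.68 ± 0.27.

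The 3 knockout arrays differed among themselves on this list. The median level of the 18 genes relative to their WT means was -0.10, 0.072 and -0.039 on the WT arrays, -0.15 on KO 1, -0.56 on KO 2 and -0.55 on KO 3. KO 1 lay close to WT 1, and KO 2 and KO 3 lay lower than every other array. KO 1 lay below all WT arrays for 8 of 18 genes (44.4%, against 31.5% of all genes), KO 2 for 15 (83.3%, against 28%) and KO 3 for 15 (83.3%, against 30%). The median change was -0.17 within slide 1, which holds KO 1, and -0.35 within slide 2, which holds KO 2, KO 3 and WT 3. Without KO 1 it was -0.53, and 11 chaperone genes (15.1%, against 9.42% of all genes) had an unadjusted limma p under 0.05. The WT array of slide 2 did not share the low values of KO 2 and KO 3, but slide 1 holds a single KO array, so the slide and the difference between KO 1 and the other KO arrays cannot be told apart.

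**Figure D2:**
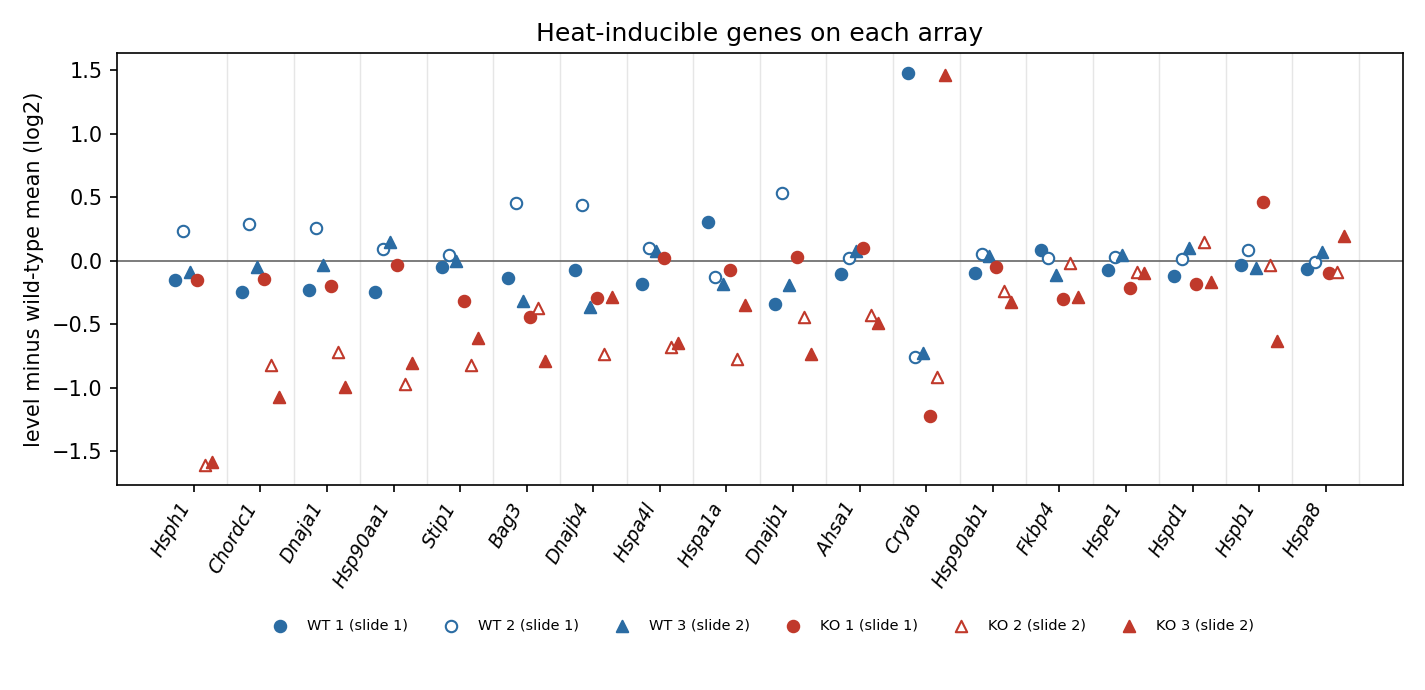
Level of each of the 18 measured heat-inducible genes on each array, as log2 difference from the mean of the 3 WT arrays. Blue marks WT, red marks KO, circles are slide 1 and triangles slide 2. The red triangles, KO 2 and KO 3, lie below the WT symbols for 15 of 18 genes each, and KO 1, the red circle, for 8.

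No cell type marker passed the adjusted limma threshold. All 11 Kupffer cell markers had lower means in KO, with a median change of -0.55, and their summed level ran from 7.44 to 8.36 in WT and from 7.05 to 7.49 in KO. These ranges overlap by WT 2 (7.44) and KO 1 (7.49), and the lowest summed level was on KO 2. At an unadjusted limma p under 0.05, 5 Kupffer cell markers were lower (2.66% of all genes were). For 2 of them all KO arrays lay below all WT arrays (5.15% of all genes did). Of 8 measured T and NK cell markers, 7 had lower means, with a median change of -0.52. The summed T and NK level was 2.04 on KO 1, 2.31 on KO 2 and 3.06 on KO 3, the last within the WT range of 2.44 to 3.21. All 9 neutrophil markers had higher means, with a median of 0.75. Their summed level was highest on KO 1 (5.97) but lowest of all arrays on KO 2 (2.64). The 9 hepatocyte markers had a median change of 0.21. The part of these cells in the chaperone values was not tested.

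Within slides, 41 of the 73 chaperone genes were lower in KO on slide 1 (52.4% of all genes were) and 49 on slide 2 (45.7% of all genes were). Among those with an unadjusted limma p under 0.05, Hsph1 had a change of -0.20 within slide 1 and -1.51 within slide 2, Dnaja1 of -0.21 and -0.82, and Hspa13 of -0.12 and -0.67. Hspb11 had a change of 0.44 and 0.26. Hsp90aa1 had a change of 0.043 within slide 1 and -1.04 within slide 2. The sign was the same on both slides for the 6 genes with the smallest p. That p comes from the same 6 arrays, so the shared sign follows in part from the choice of genes and is no independent support. The size was close on both slides for Dnajc2, while Hsph1, Dnaja1, Hspa13 and Stip1 were further below 0 within slide 2 and Hspb11 was higher within slide 1.

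**Figure D3:**
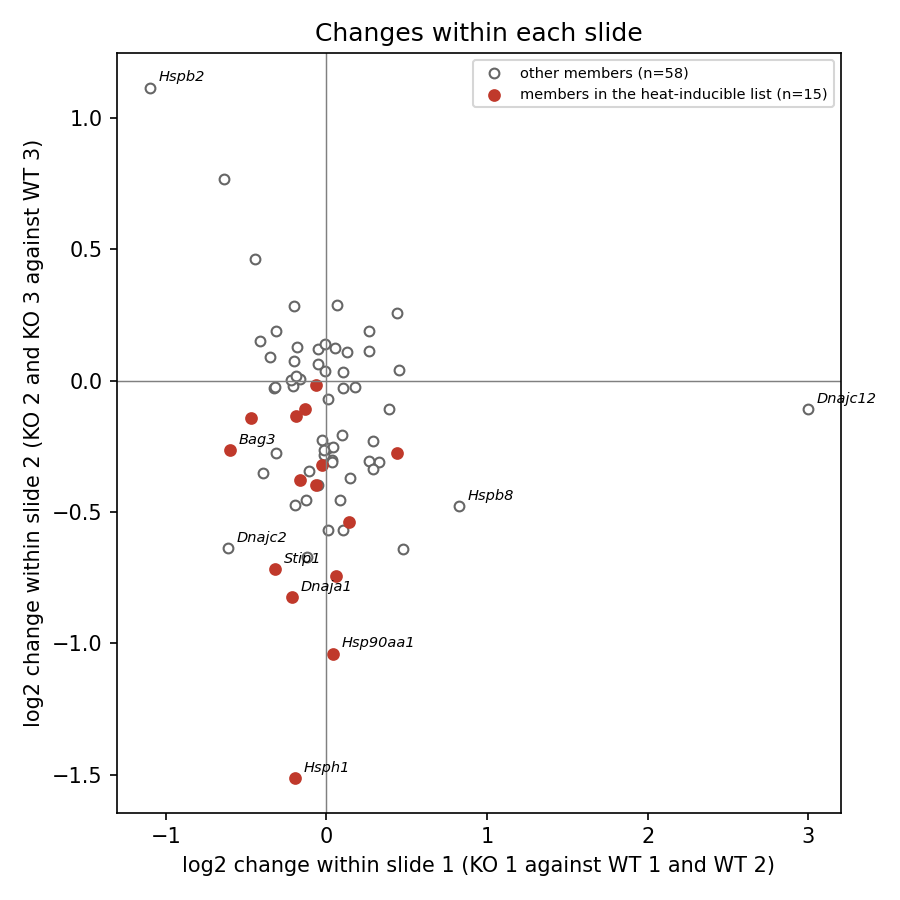
Log2 change of each measured chaperone gene within slide 1 (KO 1 against the mean of WT 1 and WT 2, horizontal axis) and within slide 2 (the mean of KO 2 and KO 3 against WT 3, vertical axis). Red points are the 15 members in the heat-inducible list and open points the other 58. Dnajc2 lies at -0.61 and -0.64, Hsph1 at -0.20 and -1.51, and Dnajc12 far to the right at 3.00 and -0.11.

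The small heat shock proteins hold unfolded clients without using ATP, and several are abundant in muscle. Hspb3 had levels of -3.86 on WT 1 and -4.16 on KO 3, where it was well above background, and lay between -8.05 and -7.84 on the others, where it was not. Hspb7 had levels of -3.04 and -2.73 on the same arrays and -7.43 to -6.71 on the others, again not well above background. Both were high on 1 array of each genotype, so neither counted as measured. Hspb6 had levels of 1.82 on WT 1 and 1.74 on KO 3 and 0.29 to 0.63 on the others, and Hspb2 had -0.81 and -0.40 against -2.38 to -1.76. WT 1 and KO 3 are the arrays with the muscle transcripts given above. The genotype changes were 0.016 ± 0.50 for Hspb6 and 0.060 ± 0.58 for Hspb2. Cryab, the alpha B crystallin gene and no member, had levels of 2.78 on WT 1 and 2.76 on KO 3 against 0.077 to 0.57 elsewhere.

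The other small HSP genes did not follow those 2 arrays. Hspb1, the heat-inducible HSP27 relative, had levels of 4.52, 4.65 and 4.50 in WT and 5.03, 4.53 and 3.93 in KO. KO 1 was the highest array and KO 3 the lowest, with a change of -0.065 ± 0.28, and of 0.20 without WT 1 and KO 3. Hspb8, the partner of Bag3 in selective autophagy, had levels of 3.77, 4.12 and 4.24 in WT and 4.77, 3.78 and 3.74 in KO. KO 1 was again highest, and the change was 0.055 ± 0.31. Hspb11, known also as an intraflagellar transport gene, had levels of 0.91, 0.82 and 0.96 in WT and 1.30, 1.06 and 1.37 in KO. All KO arrays lay above WT, with a change of 0.35 ± 0.14 (limma unadjusted p = 0.0390, adjusted p = 0.810). Hspb9, a testis-enriched member, had a change of 0.16 ± 0.22. Without WT 1 and KO 3, 1 chaperone gene had an unadjusted limma p under 0.05, as did 6.88% of all genes, and the median change of the heat-inducible list was -0.35.

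**Figure D4:**
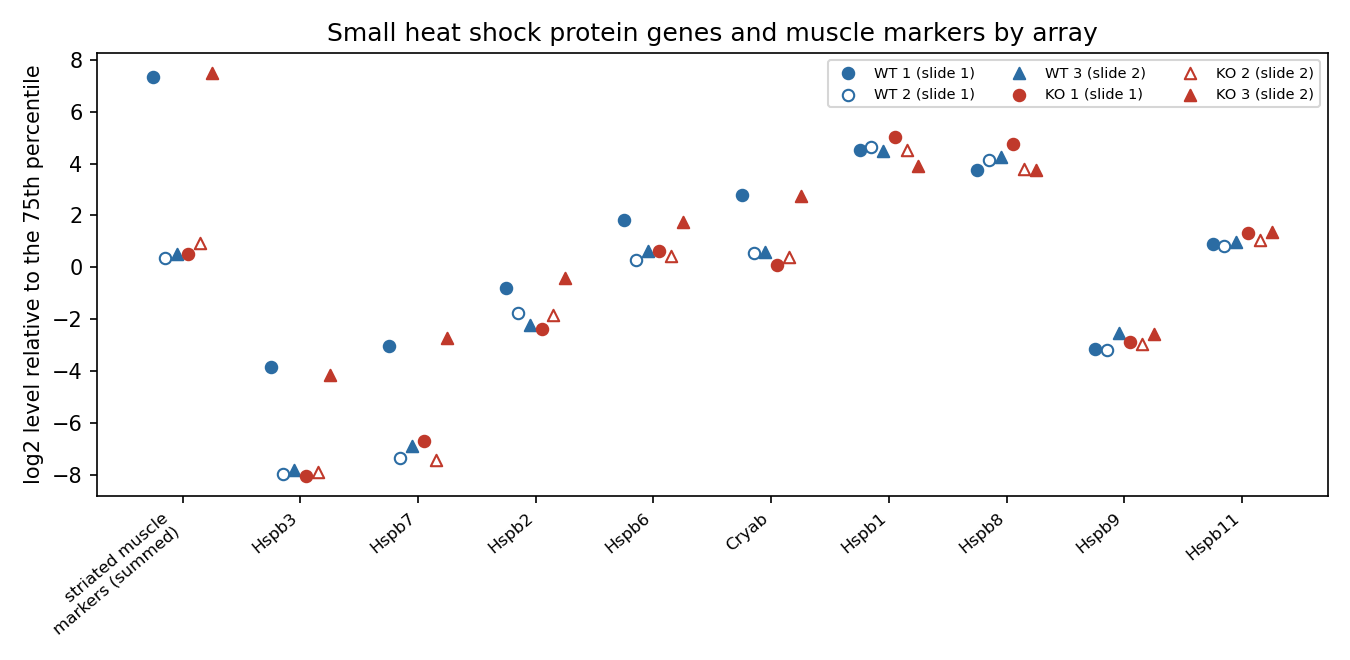
Log2 level of the small heat shock protein genes, relative to the 75th percentile of each array, beside the summed level of 21 striated muscle markers (far left). Blue marks WT, red KO, circles slide 1 and triangles slide 2. Hspb3, Hspb7, Hspb2, Hspb6 and Cryab are highest on WT 1 and KO 3, the arrays with muscle marker levels of 7.35 and 7.49, and Hspb1, Hspb8, Hspb9 and Hspb11 are not highest on both.

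Members that did not count as measured numbered 13. Besides Hspb3 and Hspb7 they were Hspa12a, Hspa1l, Hspbap1, Dnajb3, Dnajb7, Dnajb8, Dnajc5b, Dnajc5g, Dnajc6, Dnajc27 and Cct8l1. Dnajc6, the clathrin uncoating factor auxilin, was well above background on WT 3 and KO 3, and the other 10 were not well above background on any array. A level below background gives only a bound, so no change is given for these genes.

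Several probes reported 20 of the measured genes, and 12 of these had the same sign of change in every probe. Over all 101 measured probes, 70 had the lower mean in KO. The share of all probes with the lower mean was not counted, and that of all genes was 45.9%. In the limma fit with every probe kept, 10 probes were lower (2.79% of all probes were) and 2 higher (3.3% of all probes were) at an unadjusted p under 0.05, and none passed after adjustment. Hsph1 probes had changes of -1.12 ± 0.40 and -1.23 ± 0.39, and Dnaja1 probes of -0.64 ± 0.24 and -0.72 ± 0.24. The probes of each of these genes were within their errors of one another. Hspa13, Hspa4 and Hspe1 had groups without overlap in the brightest probe only, and their other probes had overlapping groups. The changes of these other probes were -0.14 ± 0.18 for Hspa13, -0.18 ± 0.14 and 0.056 ± 0.22 for Hspa4, and -0.12 ± 0.17 and -0.075 ± 0.13 for Hspe1. Dnajb11 probes opposed each other by more than 1. The bright probe had a change of -0.36 ± 0.25, and the other, well above background on 5 arrays, had levels of -3.99, -5.79 and -4.59 in WT and -3.70, -3.31 and -2.49 in KO. All its KO arrays lay above WT, with a change of 1.63 ± 0.51 (limma unadjusted p = 0.0164, adjusted p = 0.804). The probes carry different RefSeq accessions of the gene.

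**Figure D5:**
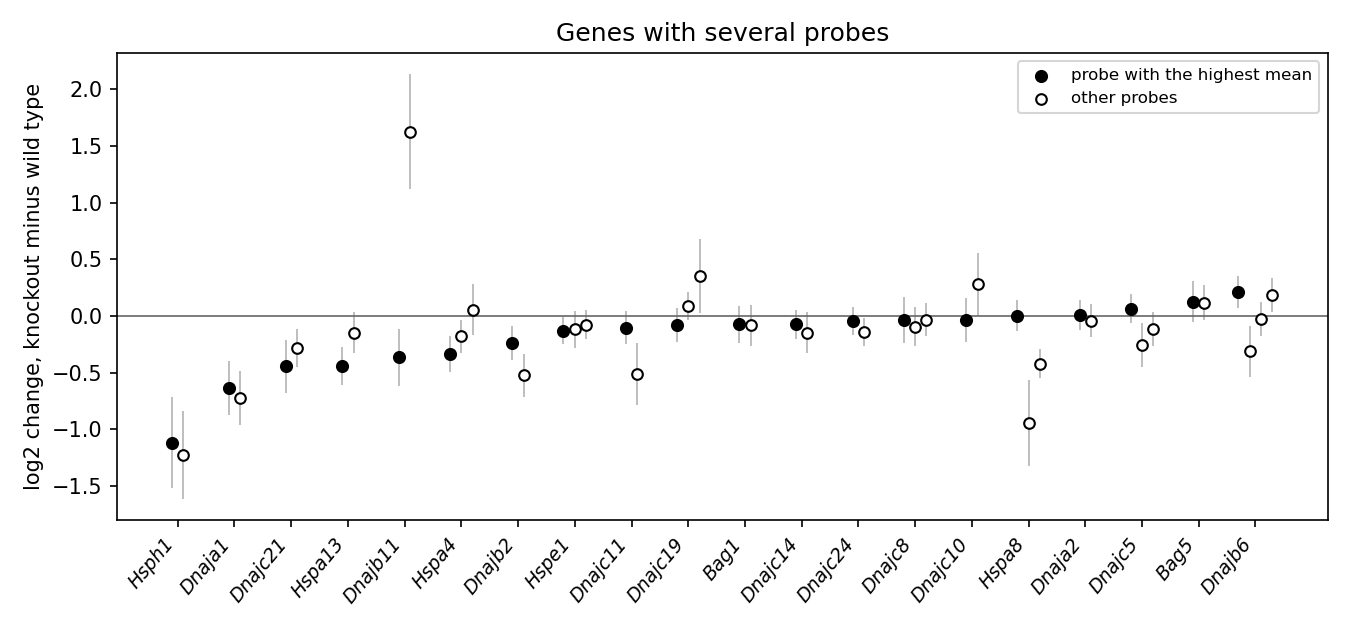
Log2 change (KO minus WT, 3 mice each) of every measured probe of the 20 chaperone genes with several probes, with the SE of the limma fit over all probes. Filled circles are the probe with the highest mean, which stood for the gene, and open circles are the others. The Hsph1 probes lie at -1.12 and -1.23, the Dnajb11 probes lie at -0.36 and 1.63, and the Hspa8 probes spread from -0.95 to 0.0028.

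Genes that work with these chaperones were given by lists. Of 8 measured heat shock factors and their regulators, 3 had lower means in KO and the median change was 0.021. Hsf1 itself had levels of 0.39, 0.46 and 0.23 in WT and 0.37, 0.36 and 0.28 in KO, with overlapping groups and a change of -0.024 ± 0.12. Hsf4, a relative best known from the lens, had KO arrays all below WT and a change of -0.33 ± 0.13 (limma unadjusted p = 0.0394, adjusted p = 0.810). For 1 other gene of this list all KO arrays lay above WT. Of 24 other HSP90 co-chaperones, among them Chordc1, which is also in the heat-inducible list, 12 had lower means, with a median of -0.0032. Cacybp, which links HSP90 partners to ubiquitin ligases, had levels of 3.26, 3.51 and 3.40 in WT and 3.09, 2.67 and 2.61 in KO, all below WT. Its change was -0.60 ± 0.17 (limma unadjusted p = 0.0111, adjusted p = 0.810). In this list all KO arrays lay below WT for 2 genes (5.15% of all genes did) and above WT for 3 (6.9% of all genes did). Of 11 other HSP70 co-chaperones, 3 had lower means, with a median of 0.030, and of 14 prefoldin and TRiC helper genes, 10 had, with a median of -0.059. Among the 4 chaperones outside the rule, Hspa5 (BiP) and Dnajb9, both of the endoplasmic reticulum, had changes of -0.42 ± 0.17 and -0.79 ± 0.29, and the mitochondrial Hspa9 and the endoplasmic reticulum Hsp90b1 had -0.00074 ± 0.15 and 0.038 ± 0.15.

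The promoter letters were then set beside the changes. Chaperone genes with a 2-unit match (16 genes) had a median change of -0.10, and those with a promoter entry and no match (43 genes) had a median of -0.078. In the heat-inducible list, 55% of 20 promoters had a 2-unit match and 25% a 3-unit match. Its 10 genes with a 2-unit match had a median change of -0.42 and its 4 genes without had -0.41. Stip1, with no match in the window shown above, had a change of -0.58, near that of Dnaja1, which has 1 match in 1 of its 3 promoters. Hspe1, with a 3-unit match, had -0.13. Dnajb6, also with a 3-unit match, had 0.21, with a range of -0.31 to 0.21 over its 4 probes. No test was made of these differences.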

How the data were processed

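Total RNA of 6 frozen livers, from 3 WT and 3 KO mice that the design text calls independent, was labelled with Cy3 and hybridised to single-colour Agilent arrays, per the labels' protocols. The deposited scanner tables hold intensity values from Agilent Feature Extraction, background-subtracted, with version 10.7.3.1 named in the submitters' processing notes but 11.5.1.1 in the headers of the files. The authors also deposited a table of log2 values, used only as an alternative; its values followed the scanner values scaled by the 75th percentile, with each probe's own median removed.

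Each array has 44397 spots. The 1377 control spots were left out, as were the 818 outlier spots over all arrays. Spots of a probe were averaged and the log2 of the 75th percentile of probes was subtracted from the log2 signal. Of 39429 probes, 28324 matched 1 symbol in the RefSeq gene table and 11105 none. A gene with several probes was given by its brightest probe on average. A probe was measured if well above background on all arrays of a genotype, meaning more than 0.5 of its spots. Genotypes were compared with limma 3.58.1 in R 4.3.3 (lmFit and eBayes, two-sided, Benjamini-Hochberg over all genes measured). The fit was also run on simulated arrays that took their means and spread from these data, and its recovery rates are not given here. The number of arrays limits the precision. Within-slide changes have no test.

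Genes named were members with an unadjusted p under 0.05, the 10 largest changes in each direction and the 3 members of each role group with the highest level. The heat-inducible list, genes with only a bound and genes whose probes oppose by more than 1 were named too. Some other lists gave genes with an unadjusted p under 0.05 or the smallest p. By this rule none was named from the HSP70 co-chaperone, prefoldin and TRiC helper, immediate early, clock and cell type marker lists. Several of these lists hold genes with an unadjusted p under 0.05. Members without overlap, Hspa2, Hspa12b, Cct6a, Hspb2, Hspb6, Hsf1, Hspa9 and Hsp90b1 were named after their values were seen. The members and lists were chosen with earlier results of these data known. WT and KO numbers did not pair the samples (correlations of same-numbered deviations -0.19, 0.042 and -0.28). Protein sequences were not used here.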

Additional observations from a re-analysis of the deposited data

How the results depend on the processing

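The threshold of 0.05 was passed by 0 chaperone genes in the main fit and under every alternative run. In the main fit 6 chaperone genes had an unadjusted limma p under 0.05. The smallest adjusted limma p of a named gene under any setting was 0.139, under normexp. Of 31 single-gene results, 14 kept their sign under all 22 settings run for them. The medians of both lists stayed below 0 under each scaling and under each omission of an array. The gene past the threshold in the whole fit, which is no chaperone, was lost (0 genes) under normexp and its trimmed form, with all 6 arrays required above background, under the replicate block and without both muscle arrays, and leaving out 1 array gave 0 to 1 genes. The trimmed form and the omission of both muscle arrays were chosen after seeing the data. Chaperone genes at an unadjusted limma p under 0.05 numbered 24 under normexp (33% of all genes were called), 3 with the slide as a block (5.11%), 4 with the replicate block (6.44%) and 1 without both muscle arrays (6.88%), and 2 (without WT 2, 3.75%) to 11 (without KO 1, 9.42%) when 1 array was left out. With every probe kept, 12 chaperone probes were called (6.09% of all probes). The replicate numbers pair nothing in the labels, and not every sample correlated best with its own number. The chaperone median was -0.16 under median centring, -0.59 under normexp and -0.21 within slide 2. The heat-inducible median was -0.78 under normexp and -0.17 within slide 1.

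Hspa8, near 0, turned to -0.055 under quantile normalization, -0.078 under median centring, -0.62 under normexp, -0.042 under the trimmed form, -0.45 with the mean of probes, -0.040 with the slide as a block, -0.0055 in the authors' table, -0.13 without both muscle arrays, -0.063 within slide 1 and -0.017 within slide 2. Normexp gave Bag5 -0.17, Dnajb12 -0.24, Dnajb4 0.45, Dnajb6 -0.46, Dnajc2 0.081, Dnajc22 -0.51, Hspa1a 1.28 and Hspb11 -0.079. On KO 1 and KO 2 it narrowed the interquartile range to 1.06 and 0.16 log2 units, against 2.34 to 2.73 on the others, and its trimmed form gave 2.38 to 2.78, with Dnajb6 at -0.29 and Hspa1a at 0.13. Hspb1 was 0.082 with the slide as a block, 0.20 without both muscle arrays and 0.44 within slide 1, and Hspb9 was -0.063 without both muscle arrays and -0.23 within slide 2. Within slide 1, Ahsa1 was 0.14, Cct6b -0.0064, Hsp90aa1 0.043 and Hspa4l 0.062. Within slide 2, Cryab was 1.00 and Dnajc12 -0.11. Leaving out 1 array gave Cryab -1.07 to 0.52, Hspa8 -0.093 to 0.053, Cct6b -0.052 to 0.21, Dnajc12 -0.023 to 1.54, Dnajb12 -0.069 to 0.24 and Hspb1 -0.33 to 0.22. The cause of these turns was not tested. Hspa1a, at levels of -5.03 to -3.95, is close to the lowest level read as well above background, -5.83 to -5.47 by array.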

Other observations

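The 2 listed genes of cold-induced RNA-binding proteins had their highest levels on KO 2 and KO 3. Such a position is common, since 35.3% of all genes on KO 2 and 38.8% on KO 3 lay above every WT array. A relation to the heat-inducible genes was not tested. Cirbp, the cold-inducible RNA-binding protein, had levels of 1.45, 1.00 and 1.38 in WT and 1.17, 2.15 and 2.00 in KO. KO 2 and KO 3 lay above every WT array and KO 1 lay within their range, with a change of 0.49 ± 0.29. Rbm3, its relative, had levels of 2.36, 2.03 and 2.18 in WT and 2.18, 2.40 and 2.71 in KO, with KO 2 just above WT 1 and KO 3 the highest, and a change of 0.24 ± 0.18. Neither passed the adjusted limma threshold.

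Of 12 other stress proteins, 10 had lower means in KO, with a median change of -0.073. Hmox1, heme oxygenase 1, had a change of -0.39 ± 0.23 with overlapping groups. The 14 immediate early genes, which respond within minutes to handling of tissue, split into 6 lower and 8 higher, with a median of 0.13. Their changes ran from -1.04 to 0.89. At an unadjusted limma p under 0.05, 2 were lower (2.66% of all genes were) and 3 higher (3.47% of all genes were). None passed after adjustment. A relation of these genes to the chaperone values was not tested. The 12 measured clock genes had a median of -0.0069.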
